A study of Rattus norvegicus with 6 samples.

Results

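The 2 arrays labelled biological replicate 2, out of 6 arrays in all, were compared with the 4 arrays labelled replicates 1 and 3. They were chosen by the replicate number in the sample title, and the siRNA was kept as a covariate, so that each side held COUP-TFII siRNA and scrambled siRNA arrays in equal parts. The cells were the rat insulinoma line 832/13 INS-1, a clonal β-cell line that secretes insulin, grown in 11 mM glucose and used between passages 7 and 25. In replicate 2, 1 array came from cells electroporated with siRNA against COUP-TFII, a nuclear receptor encoded by Nr2f2, and 1 from cells electroporated with scrambled siRNA. Replicates 1 and 3 held the same pair of groups, and all cells were cultured for 48 h after electroporation. Biotin-labelled RNA was hybridized to Affymetrix rat arrays, on which each transcript is read by 1 or more probe sets, sets of short oligonucleotides whose combined brightness, the signal, has no unit. The labels do not say whether a number stands for a culture, an electroporation, an RNA preparation, a labelling or a hybridization, and these cannot be told apart here. Replicate 2 is also a single number set against 2 others, so the p-values below measure the spread between arrays and not the spread over many culture runs.

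A cell line passaged in culture is the same clone from run to run, but its growth state, its medium and the handling of its RNA can differ each time. Sterol synthesis genes answer as a group to the cell's cholesterol supply, through the SREBP transcription factors that INSIG proteins hold in the endoplasmic reticulum. Cohesin and condensin are ring complexes built on SMC proteins that hold sister chromatids together and fold chromosomes, and a cycling cell makes kinesins and kinetochore proteins in G2 and mitosis.

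The arrays carried the markers of a β-cell line in every replicate. Ins1, an insulin gene, read from 9490 to 15840, Iapp, the amylin gene, from 9107 to 11470, and Pdx1, a transcription factor of β-cells, from 391 to 505, against at most 20.7 for the 27 probe sets of Bacillus genes, controls with no target in rat RNA. None of these markers was called between replicate 2 and the others (limma, adjusted p = 0.456, 0.837 and 0.923), with log2 differences of -0.32, 0.09 and 0.04. In the signals as deposited, the further β-cell markers Ins2, Nkx6-1, Slc2a2, Neurod1 and Chga were all lower in replicate 2, by -0.82, -0.60, -0.34, -0.18 and -0.15. That shared direction depended on the array scale. With each array centred on its median, Ins2 was at -0.50, Nkx6-1 at -0.29 and Ins1 at -0.01. Centring adds the same amount to every difference, so Neurod1 and Chga turned positive. These further markers were not called either (adjusted p from 0.0566 to 0.678). Ins2 and Neurod1 did not overlap between the groups, and 17.7% of all probe sets were lower in replicate 2 without overlap. The level of COUP-TFII itself was lower with its siRNA in each replicate, at 47.0, 27.7 and 23.8 against 182, 235 and 179. Of the markers of other cells, 5 of 9 for other islet hormones, 9 of 16 for acinar and duct cells, 6 of 12 for leukocytes and 4 of 7 for endothelial cells lay at or below the Bacillus level on all 6 arrays, and none of these 4 lists had a member called. The brightest were Gcg, the glucagon gene, at 394 to 8056, Thy1 at 305 to 483, Krt7 at 372 to 532, Esam at 212 to 378 and C1qa at 63.6 to 91.4, while Pdgfra, Kdr, Cd68 and Ppy read between 20.1 and 65.6. Of 10 markers of fibroblasts, 5 stayed at or below the Bacillus level on all arrays. The 10 had a summed signal of 377 and 489 in replicate 2 and of 555 to 608 in the other arrays. Among them 1 (10%), Postn, was called lower, beside 4.66% of all probe sets. The median log2 signal was 4.96 and 4.90 on the replicate 2 arrays and from 5.17 to 5.30 on the other 4, and 42.2% and 43.7% of probe sets lay at or below the Bacillus signal in replicate 2 against 36.2% to 39.1% elsewhere. The 3′ to 5′ signal ratio of β-actin, which rises when RNA is degraded, was 3.39 and 2.98 in replicate 2 and from 2.64 to 3.003 in replicates 1 and 3. The part of these markers and array properties in the results below was not tested.

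In the signals as deposited, more transcripts were lower than higher in replicate 2, a balance that turned with each array centred on its median, where 2897 probe sets were called higher and 1081 lower. Of 31042 probe sets that are not controls, 1448 (4.66%) were called lower and 259 (0.834%) higher at an adjusted p under 0.05 (limma with siRNA as a covariate, two-sided, Benjamini-Hochberg over all probe sets). The probe sets called lower had a median log2 difference of -1.33, a 2.52-fold lower signal, while those called higher had a median of 0.62, a 1.54-fold higher signal. The lower ones belonged to 623 named genes and the higher ones to 229, and no gene had probe sets called in both directions. Among 396 genes called lower with several probe sets, all probe sets pointed the same way for 327. For 288 the brightest probe set was called lower, and for 94 every probe set was. Of 69 genes called higher with several probe sets, all pointed the same way for 50, the brightest was called for 59 and every one for 4. Where signals below the Bacillus level were raised to it, 901 of the probe sets called lower were still more than 2-fold lower, beside 1023 without that step. At an unadjusted p up to 0.05 there were 3862 lower (12.4%) and 2021 higher (6.51%), and the signals of the 2 and the 4 arrays did not overlap for 5504 lower (17.7%) and 3454 higher (11.1%).

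These counts depended on the fit and on single arrays. With the replicate number as a block of 3 levels, which removes the difference between replicates 1 and 3 from the error, 2228 probe sets were called lower (7.18%) and 1243 higher (4%), among them all 1707 of the first count. The p-values and counts with the block, here and below, thus leave out the spread between replicates 1 and 3. Without the intensity trend in limma none was called in either direction, although 3840 were lower and 845 higher at an unadjusted p up to 0.05. Centring, which moved the median log2 difference of all probe sets from -0.09 to 0.23, brought the share of calls that were higher to 72.8%, against 15.2% in the values as deposited. Leaving 1 array out gave 0 higher and 165 lower without the COUP-TFII siRNA array of replicate 2, and 0 higher and 123 lower without the scrambled siRNA array of replicate 2. Without the scrambled siRNA array of replicate 1 there were 84 higher and 943 lower, without that of replicate 3 there were 64 and 852, and without the COUP-TFII siRNA array of replicate 3 the calls higher numbered 153.

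Replicate 2 stood apart from each of the others taken singly, and they stood closer to each other. With the replicate number as 3 levels, 2229 probe sets (7.18%) were called between replicates 2 and 1, 3469 (11.2%) between 2 and 3, and 498 (1.6%) between 3 and 1, comparisons that share arrays. All 1448 and 259 probe sets above had the same sign against replicate 1 as against replicate 3, beside 22142 of all 31042 probe sets. The calls largely fixed that in advance, so it is no further support. Over all probe sets the contrast of replicate 2 with the others held 28.2% of the variation between the 6 arrays, that of replicate 1 with replicate 3 held 21.4% and the siRNA 17%. The rest, in which these replicate contrasts differed between the siRNAs, was 16.3% and 17.1%, so the siRNA's share was no larger than these. Over the 15521 probe sets whose mean signal reached the median of 33.5, the same contrasts held 55.7%, 21.1% and 9.01%, and the rest was 6.65% and 7.62%. On the first principal component of the values centred within each siRNA, which carried 62.1% of their variation, the replicate 2 arrays lay at 44.0 and 46.0 and the other 4 between -28.8 and -15.9.

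Among the brighter probe sets, those that differed most were lower in replicate 2 with either siRNA. The difference of replicate 2 from the mean of replicates 1 and 3 had a correlation across these 15521 probe sets of r = 0.782 between the COUP-TFII siRNA arrays and the scrambled siRNA arrays, which share no array, though genes are not independent replicates. The same r was 0.546 for replicate 1 and 0.641 for replicate 3. Over all 31042 probe sets it was 0.231 for replicate 2, 0.111 for replicate 1 and 0.163 for replicate 3. The 200 probe sets that differed most in the scrambled siRNA arrays were taken from the 15521 brighter ones only. Of these 200, 198 were lower, with a median log2 difference of -2.37. All 198 were also lower in the COUP-TFII siRNA arrays, with a median of -2.14. In the test of whether the difference depended on the siRNA, limma called 0 probe sets, with 463 and 322 in the 2 directions at an unadjusted p up to 0.05.

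**Figure D1:**
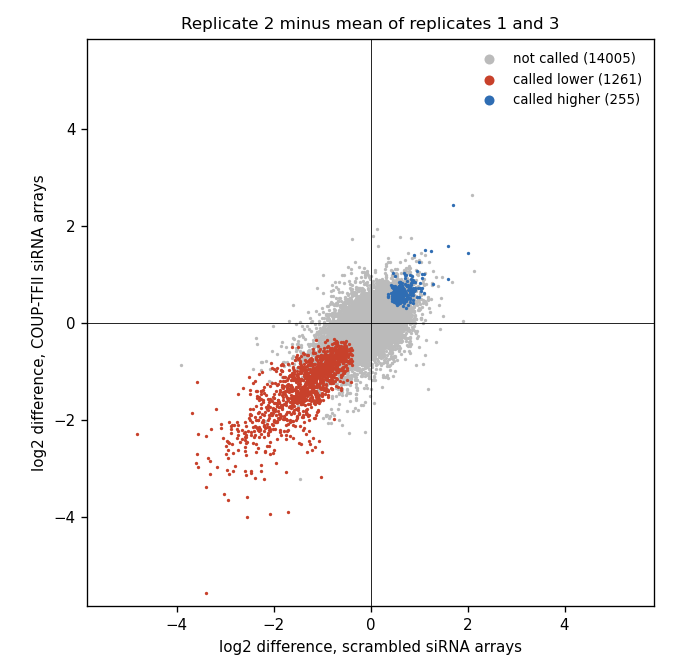
Log2 difference of replicate 2 from the mean of replicates 1 and 3, measured in the scrambled siRNA arrays (horizontal axis) and in the COUP-TFII siRNA arrays (vertical axis), 1 point for each of the 15521 brighter probe sets. The 1261 probe sets called lower (red) extend far to the lower left, while the 255 called higher (blue) stay nearer to the origin.

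By the rule for named genes, which takes called probe sets with 1 symbol, at or above the median signal and without overlap between the groups, the 12 lowest in replicate 2 were Zfp120, Zfp329, Ranbp2, Zfp638, Zfp292, Thoc2, Phip, Zfp40, Akap9, Kif20b, Ptpn4 and Giot1, with log2 differences from -4.49 to -2.86. Their adjusted p ran from 9.24e-05 to 0.00612, and all 12 stayed called after quantile normalization and with the block. Without either 1 of the replicate 2 arrays, 9 of the 12 were called.

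Kif20b, a kinesin needed to complete cell division, had the lowest p of all probe sets. Its signal was 736 and 699 in replicates 1 and 3 with COUP-TFII siRNA, 571 and 697 with scrambled siRNA, and 87.8 and 81.3 in replicate 2, in the same order of siRNA. The groups lay far apart, with a log2 difference of -2.99 ± 0.13 (SE), 7.96-fold lower (adjusted p = 9.24e-05).

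Ranbp2, a nucleoporin of the cytoplasmic face of the nuclear pore, read 269.8 and 317 with COUP-TFII siRNA and 219 and 295 with scrambled siRNA in replicates 1 and 3, and 23.1 and 33.2 in replicate 2. That was 9.84-fold lower (log2 difference -3.30 ± 0.22 SE, adjusted p = 0.000149). Thoc2, a subunit of the THO complex that couples transcription to mRNA export, read 359.5, 406, 329 and 369.5 in the 4 arrays and 58.3 and 29.3 in replicate 2, 8.84-fold lower (adjusted p = 0.000148). Phip, which binds insulin receptor substrates, read from 184 to 347 in replicates 1 and 3 and 36.6 and 25.4 in replicate 2. The replicate 2 arrays were the lowest 2 of 6 for each of these genes, which the rule required. Ranbp2 had other probe sets that were called lower as well, and so did Thoc2.

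Akap9, a scaffold for protein kinase A at the centrosome and Golgi, read 68.3, 122, 78.2 and 101 in replicates 1 and 3 and 5.89 and 21.03 in replicate 2. Ptpn4, a tyrosine phosphatase, read from 144 to 233 in the 4 arrays and 23.9 and 27.4 in replicate 2. For 5 of the 12, namely Zfp120, Zfp329, Zfp638, Zfp40 and Giot1, both replicate 2 signals were at or below the Bacillus level, so that the fold is only a bound. Zfp120 read 104, 119.5, 97.4 and 112 in the 4 arrays and 2.35 and 9.85 in replicate 2, and with signals below 20.7 raised to that level it was at least 5.21-fold lower. Giot1, a zinc finger gene induced by gonadotropins in the ovary, was at least 3.78-fold lower by the same measure.

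**Figure D2:**
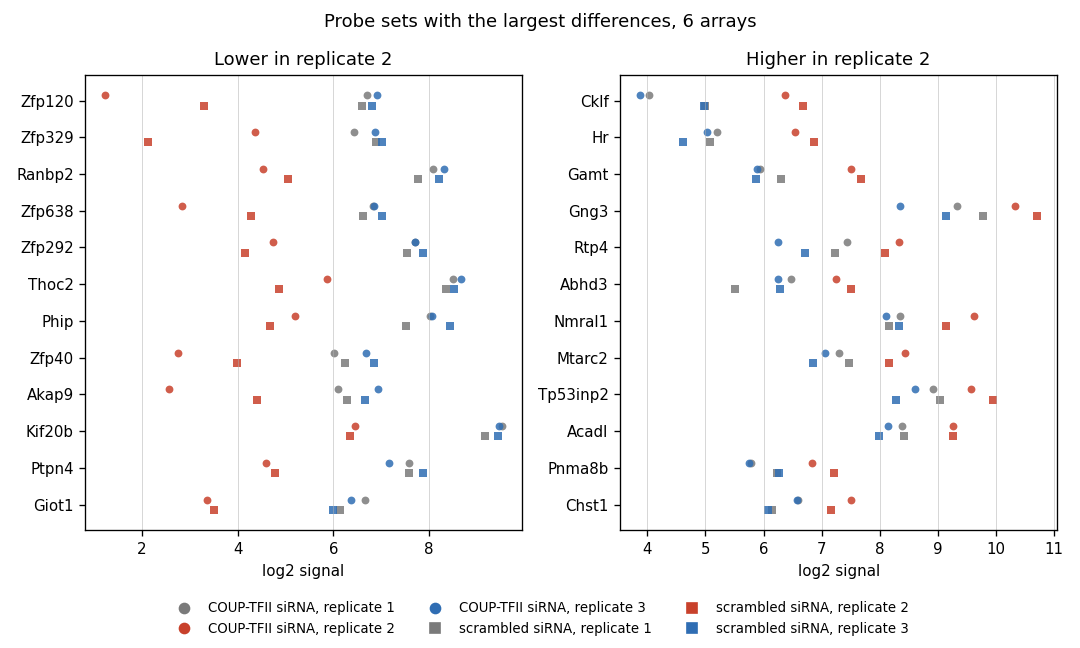
Log2 signal (horizontal axes) of the 12 probe sets per direction with the largest called differences among those that met the rule for named genes. Circles mark COUP-TFII siRNA, squares scrambled siRNA and red replicate 2. The red points lie outside the range of the 4 grey and blue points in every row, as the rule for choosing the rows required, and Kif20b and Ranbp2 (left panel) read 87.8 and 81.3, and 23.1 and 33.2, in replicate 2.

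Genes of cohesin, condensin and the related SMC complex divided into members called lower and members not called. This list, like those of the Zfp, Usp, Kif and Cep symbols below, was added after the values were seen, so its count is a description. Of 19 measured genes 12 were called lower, 63.2% beside 4.66% of all probe sets and 1261 of the 15521 brighter ones, and none was called higher. The median log2 difference was -1.20 beside -0.09 over all probe sets (-0.88 with each array centred on its median). All 6 SMC subunits measured were among the 12, namely Smc1a and Smc3 of cohesin, Smc2 and Smc4 of condensin, and Smc5 and Smc6 of the third complex.

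Smc4 read 426 and 409 with COUP-TFII siRNA and 411 and 528 with scrambled siRNA in replicates 1 and 3, and 82.1 and 78.2 in replicate 2, 5.50-fold lower (log2 difference -2.46 ± 0.15 SE, adjusted p = 0.000122). Stag2, which binds the cohesin ring, read 1031 and 892, 883 and 987 in the same arrays and 152 and 207 in replicate 2, 5.34-fold lower. Smc3 was 4.44-fold lower and Nipbl, the cohesin loader, 3.75-fold lower. Pds5a and Wapl, which release cohesin, Esco2, which acetylates it, and Stag1 had log2 differences of -1.24, -1.20, -1.36 and -0.74.

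The other 7 genes of the list had log2 differences between 0.07 and 0.48 and were not called. With the block 2 were called higher, beside 4% of all probe sets. They were the cohesin kleisin subunit Rad21 (0.15), Pds5b (0.12), and the non-SMC condensin subunits Ncaph (0.48), Ncapd3 (0.45), Ncaph2 (0.33), Ncapd2 (0.26) and Ncapg2 (0.07). Subunits of the same complex were therefore unequal, with Smc2 and Smc4 called lower and the condensin subunits beside them not called.

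**Figure D3:**
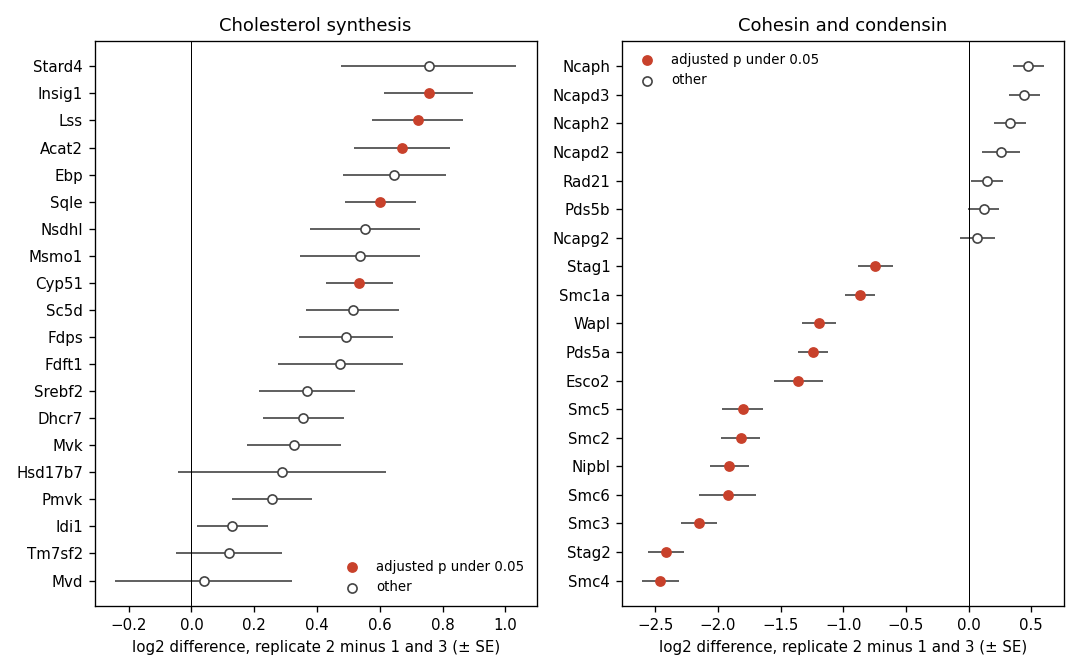
Log2 difference of replicate 2 from replicates 1 and 3 (horizontal axes, bars are 1 SE) for the measured genes of 2 lists, with filled red points for an adjusted p under 0.05. On the left all 20 cholesterol synthesis genes lie above 0 and 5 are called, and on the right 12 of 19 cohesin and condensin genes are called lower, from Stag1 at -0.74 to Smc4 at -2.46.

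Of 25 genes of G2 and mitosis, 7 (28%) were called lower and none higher, beside 4.66% and 0.834% of all probe sets. Of the 15521 brighter ones, 1261 were called lower and 255 higher. The median over the list was 0.13 (0.04 after quantile normalization). Cenpe, a kinesin of the kinetochore, read 264 and 239 with COUP-TFII siRNA and 171 and 259 with scrambled siRNA in replicates 1 and 3, and 46.7 and 35.1 in replicate 2, 5.68-fold lower (adjusted p = 0.000265). Cenpf, also of the kinetochore, was 3.49-fold lower and the spindle checkpoint kinase Ttk 2.59-fold lower. The proliferation marker Mki67 read from 1220 to 1355 in replicates 1 and 3 and 748 and 756 in replicate 2, 1.74-fold lower. Bub1, Kif11 and Hmmr were lower with log2 differences of -0.83, -0.63 and -0.74. In all, 15 of the 25 genes had a higher mean in replicate 2 and 10 a lower one, so the list did not move as a whole.

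Kinesins divided in the same manner. Of 27 genes with a Kif symbol, Kif20b, Kif5b, Kif15, Kif18a and Kif11 were called lower. Kif22, a chromosome-binding kinesin, was called higher, at 1151 and 1156 in replicate 2 against 744 to 808 in replicates 1 and 3. The shares were 18.5% lower and 3.7% higher, beside 4.66% and 0.834% of all probe sets. Of the 15521 brighter ones, 1261 were called lower and 255 higher. Kif5b, which carries cargo along microtubules in all cells, read from 1136 to 1520 in replicates 1 and 3 and 527 and 588 in replicate 2, so that the lower group was not limited to mitotic motors. The median over the Kif genes was -0.10, which turned to 0.22 with each array centred.

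Among 24 genes of S phase and DNA replication, 2 were called lower and 2 higher, 8.33% each way, beside 4.66% and 0.834% of all probe sets. All 24 reached the median signal, and of the 15521 probe sets that did, 1261 were called lower and 255 higher. The share called lower was thus near that of probe sets of this brightness. Pola1, the catalytic subunit of DNA polymerase α, read 363, 492, 322 and 501 in replicates 1 and 3 and 144 and 123 in replicate 2, 3.10-fold lower (log2 difference -1.63 ± 0.20 SE, adjusted p = 0.00194), and Ccne2, cyclin E2, was lower by 0.57 on the log2 scale. Uhrf1, which maintains DNA methylation after replication, rose to 513 and 488 from 244 to 322, 1.82-fold (adjusted p = 0.00718), and Gins1, a subunit of the replicative helicase, rose 1.55-fold. With the block 10 genes of this list were called higher and 2 lower, beside 4% and 7.18% of all probe sets.

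Of 220 genes with a Zfp symbol, 39 (17.7%) were called lower and 1, Zfp637, higher, counted on the brightest probe set of each gene. Of all probe sets 4.66% were called lower, and 1261 of the 15521 brighter ones. Zfp68 read 800.1, 913, 681 and 812 in replicates 1 and 3 and 193 and 170.2 in replicate 2, 4.40-fold lower. Zfp386 was 3.71-fold lower. The median over all 220 was -0.16, and it was -0.01 after quantile normalization and 0.15 with each array centred, so the family as a whole had no settled direction.

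Of 30 splicing factors and RNA-binding proteins, Rbm39, Sf3b1, Hnrnph1, Srsf5, Clk4 and Hnrnpa3 were called lower, and none was called higher. That was 20% beside 4.66% of all probe sets and 1261 of the 15521 brighter ones. Rbm39, a splicing factor related to U2AF, read 1884 and 1927 with COUP-TFII siRNA and 1590.0 and 1564 with scrambled siRNA in replicates 1 and 3, and 798 and 735 in replicate 2, 2.26-fold lower (adjusted p = 0.000512). Sf3b1, a core component of the U2 particle, was lower by 0.66 on the log2 scale. The list's median was -0.26, and it became 0.05 with each array centred.

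Of 29 genes of ribosome biogenesis and the nucleolus, Nop58, Ncl and Gnl3 were called lower (10.3%) and Rrs1 higher (3.45%). Of all probe sets 4.66% and 0.834% were so called, and of the 15521 brighter ones 1261 and 255. Nop58, a core protein of box C/D particles that modify ribosomal RNA, read from 1190.0 to 1626 in replicates 1 and 3 and 653 and 574 in replicate 2, 2.34-fold lower. Ncl, nucleolin, was 2.12-fold lower (adjusted p = 0.00351), while Rrs1, a ribosome assembly factor, rose 1.59-fold. The cytosolic ribosomal proteins, 41 measured genes, had none called, with a median of -0.10 that became 0.21 with each array centred.

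Of 43 ubiquitin-specific proteases (Usp symbols), Usp9x, Usp47, Usp15, Usp37, Usp34 and Usp33, which remove ubiquitin from proteins, were called lower and none higher. That was 13.95% lower, beside 4.66% of all probe sets and 1261 of the 15521 brighter ones. Usp9x read from 525 to 581 in replicates 1 and 3 and 195 and 192 in replicate 2, 2.85-fold lower. Of 31 centrosomal proteins with a Cep symbol, 4 (12.9%) were called lower, from Cep70 at 4.20-fold to Cep295, and none higher. The same 4.66% of all probe sets and 1261 of the 15521 brighter ones stand beside this small count. The medians of the families were 0.01 and -0.08, and 0.32 and 0.23 with each array centred.

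The higher transcripts differed by less and were led by genes of no single pathway. By the rule for named genes they were Cklf, Hr, Gamt, Gng3, Rtp4, Abhd3, Nmral1, Mtarc2, Tp53inp2, Acadl, Pnma8b and Chst1, with log2 differences from 2.06 to 0.99 and adjusted p from 0.0021 to 0.0432. After quantile normalization 11 of the 12 stayed called, and none did without either 1 of the replicate 2 arrays.

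Gamt, the enzyme of the last step of creatine synthesis, read 61.7 and 59.4 with COUP-TFII siRNA and 78.5 and 58.9 with scrambled siRNA in replicates 1 and 3, and 181 and 206 in replicate 2, 3.01-fold higher (log2 difference 1.59 ± 0.20 SE, adjusted p = 0.0021). Nmral1, an NADPH sensor, read from 278 to 328 in the 4 arrays and 791 and 568 in replicate 2. Acadl, the long-chain acyl-CoA dehydrogenase of mitochondrial fatty acid oxidation, read from 254 to 344 and then 618 and 614, 2.04-fold higher. The replicate 2 arrays were the highest of 6 in all 3 genes, which the rule required.

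Cklf, a chemokine-like factor, had the largest difference among the probe sets that met the rule, but on 2 of the 4 other arrays its signal was below the Bacillus level. It read 16.2, 14.7, 32.0 and 31.5 there and 82.9 and 102 in replicate 2. Hr, the hairless corepressor of nuclear receptors, read from 24.4 to 36.9 and then 93.4 and 116, 3.30-fold higher. Gng3, a γ subunit of G proteins, and Rtp4, an interferon-induced receptor transporter, were 2.58- and 2.47-fold higher, and in both replicate 3 was lower than replicate 1 for each siRNA.

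All 20 measured genes of cholesterol synthesis had a higher mean in replicate 2, with a median log2 difference of 0.50 beside -0.09 over all probe sets, and the median was 0.49 after quantile normalization and 0.82 with each array centred. The fit called 5 of the 20 higher, 25.0% against 0.834% of all probe sets and 255 of the 15521 brighter ones. At an unadjusted p up to 0.05 there were 14 higher, beside 6.51% of all probe sets. With the block 12 were called higher, beside 4% of all probe sets. The median was 0.50 in the COUP-TFII siRNA arrays and 0.50 in the scrambled siRNA arrays.

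Insig1, the sensor that retains the SREBP precursor in the endoplasmic reticulum and is itself an SREBP target, read 313 and 409 with COUP-TFII siRNA and 329 and 357 with scrambled siRNA in replicates 1 and 3, and 552 and 633 in replicate 2. It was 1.69-fold higher (log2 difference 0.76 ± 0.14 SE, adjusted p = 0.0175). Sqle, squalene epoxidase, read 420.4, 445, 386 and 414 and then 612 and 651, 1.52-fold higher. Lss, lanosterol synthase, was 1.65-fold higher, Cyp51, which demethylates lanosterol, 1.45-fold and Acat2, which joins acetyl-CoA units, 1.59-fold. In all 5 both replicate 2 arrays lay above the other 4, as in all 259 probe sets called higher. Fads1, a fatty acid desaturase of another list, rose 1.67-fold as well, with Insig1 the only other gene called among 18 of fatty acid synthesis. That was 11.11% of the list, beside 0.834% of all probe sets.

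The sequences upstream of the genes called in this list are shown because their members moved together. They are the 200 bases before the annotated start of each gene in RefSeq, build GRCr8, and the table used here held 4 of the 5 genes. Capitals mark CCAAT, the core of the NF-Y site, and GGGCGG, a GC box, on either strand. Insig1 lies at chr4:8057770-8057969 on the minus strand, Cyp51 at chr4:30991493-30991692 on the plus strand, Lss at chr20:12118231-12118430 on the minus strand and Acat2 at chr1:50100640-50100839 on the plus strand.
Insig1: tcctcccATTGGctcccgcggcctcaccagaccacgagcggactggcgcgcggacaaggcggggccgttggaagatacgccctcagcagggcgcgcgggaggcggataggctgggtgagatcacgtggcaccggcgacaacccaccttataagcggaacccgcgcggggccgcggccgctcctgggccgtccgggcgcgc
Cyp51: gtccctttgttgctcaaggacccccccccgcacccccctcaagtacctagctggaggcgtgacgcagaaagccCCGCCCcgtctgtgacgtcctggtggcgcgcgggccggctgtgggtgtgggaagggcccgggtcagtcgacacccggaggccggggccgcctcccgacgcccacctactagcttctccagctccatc
Lss: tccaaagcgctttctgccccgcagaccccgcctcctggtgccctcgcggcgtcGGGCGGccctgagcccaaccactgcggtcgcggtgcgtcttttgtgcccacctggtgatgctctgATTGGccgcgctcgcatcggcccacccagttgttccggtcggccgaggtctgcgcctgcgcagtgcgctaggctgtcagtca
Acat2: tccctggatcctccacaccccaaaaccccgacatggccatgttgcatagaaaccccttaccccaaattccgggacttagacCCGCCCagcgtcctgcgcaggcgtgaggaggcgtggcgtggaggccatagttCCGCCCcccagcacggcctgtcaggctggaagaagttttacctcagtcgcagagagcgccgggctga
In the 250 bases before the start, CCAAT in either direction stood in 13 of the 16 cholesterol synthesis genes that the table holds (81.2%) and in 34.3% of all 27457 promoters. In Lss it began 82 bases before the start and in Insig1 193, and neither Cyp51 nor Acat2 held it in this window. GGGCGG stood in 14 of the 16 (87.5%) and in 32.4% of all promoters. A sterol response element written TCACNCCAC, searched on both strands, matched none of the 16 and 0.98% of all promoters. These are matches of letters and not measured sites.

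Promoter base composition was close between the classes. The median share of G and C in the 250 bases before the start was 58.4% for genes called higher, 60.8% for genes called lower and 59.2% for named genes with no call, with sequences for 197 of 229, 534 of 623 and 11002 of 13365 genes.

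In complex I, the first enzyme of the respiratory chain, 32 of 33 measured genes had a higher mean in replicate 2, with a median log2 difference of 0.23 that became 0.13 after quantile normalization and 0.54 with each array centred. The fit called 4 of them higher, namely Ndufs3, Ndufa3, Ndufs7 and Ndufs8, and 2 after quantile normalization. The 4 were 12.1% of the list, beside 0.834% of all probe sets and 255 of the 15521 brighter ones. Ndufs3 read 903, 884, 867 and 863 in replicates 1 and 3 and 1257 and 1322 in replicate 2, 1.47-fold higher (adjusted p = 0.0182). Ndufs7 was 1.67-fold higher. With the block 10 complex I genes were called higher, beside 4% of all probe sets. In the other complexes and ATP synthase 27 of 34 genes had a higher mean, the median was 0.15 (0.10 after quantile normalization and 0.47 with centring), and none was called.

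Of 18 glycolytic genes, 15 had a higher mean and the median was 0.33. Only Tpi1, triosephosphate isomerase, was called higher, 5.56% of the list beside 0.834% of all probe sets. It read 3184 and 3207 in replicate 2 and 1877 to 2405 in replicates 1 and 3. That call was lost after quantile normalization, and with the block 5 were called higher. Among 22 genes of the hypoxia response only Bnip3, a mitophagy receptor, was called, 4.55% of the list. It read 1668 and 1405 against 789 to 1146, 1.68-fold higher (adjusted p = 0.0294). With the block 6 of these 22 were called higher. The block called 4% of all probe sets higher.

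Stress genes moved in part. Of 16 heat shock genes, Dnajb1 and Hsph1, chaperone partners of HSP70, were called higher, 1.47- and 1.57-fold. That was 12.5% of the list beside 0.834% of all probe sets, while the list's median was -0.03 (0.28 with each array centred). Of 26 targets of the integrated stress response, Gpt2, an alanine aminotransferase, was called higher (3.85%), 1.68-fold (adjusted p = 0.0484). With the block 6 of the 26 were called higher, beside 4% of all probe sets. Endoplasmic reticulum chaperones had a higher mean in 21 of 23 genes and a median of 0.42, but none was called. The list's median was 0.04 for replicate 2 against 1, 0.69 for replicate 2 against 3 and -0.66 for replicate 3 against 1. Creld2, a chaperone of this list, read 1351, 1618 and 614 in replicates 1, 2 and 3 with COUP-TFII siRNA and 903, 1595 and 493 with scrambled siRNA. With the block 11 genes of the list were called higher and 1 lower, beside 4% and 7.18% of all probe sets.

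Other single genes stood out in lists that did not move together. Eif2ak2, the kinase PKR that senses double-stranded RNA, read 208, 166, 172 and 196 in replicates 1 and 3 and 63.5 and 60.0 in replicate 2. It was 2.99-fold lower (adjusted p = 0.000995) and the only gene called among 24 of the interferon response, 4.17% beside 4.66% of all probe sets. Of 19 genes of the circadian clock, Clock and Hlf were called lower and Cry1 and Dbp higher. That was 10.53% each way, beside 4.66% and 0.834% of all probe sets. Of the 15521 brighter ones, 1261 were called lower and 255 higher. Clock read from 293 to 465 in replicates 1 and 3 and 148 and 208 in replicate 2, 2.05-fold lower, and Cry1, a repressor of the clock, rose 1.56-fold. Eprs1 and Lars1, aminoacyl-tRNA synthetases, were called lower, with log2 differences of -0.58 and -0.55, among 17 genes (11.76% beside 4.66%). All 17 reached the median signal, and 1261 of the 15521 probe sets that did were called lower, so the share was near that of this brightness.

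Of 15 β-cell transcription factors St18, a zinc finger factor of islets, was called lower, 6.67% of the list. Of all probe sets 4.66% were called lower, and 1261 of the 15521 brighter ones. It read 127 and 239 in replicate 2 against 314 to 409 in the other arrays, 1.98-fold lower (adjusted p = 0.0158). None of 17 hormones and granule cargo genes was called, and none of 15 genes of glucose sensing and calcium entry. With the block 2 of the 17 were called higher and 3 lower, and 3 of the 15 lower. The block called 4% of all probe sets higher and 7.18% lower. Ins2, the other insulin gene, read 5713, 4415 and 8198 in replicates 1, 2 and 3 with COUP-TFII siRNA and 5539, 3230.0 and 7535 with scrambled siRNA, lowest in replicate 2 for both and with a log2 difference of -0.82 ± 0.20 (SE, adjusted p = 0.0566). It was called with the block (adjusted p = 0.00378) and after quantile normalization (adjusted p = 0.0487). With each array centred on its median it was not called (log2 difference -0.50, adjusted p = 0.132). Nor was it with the block as a random effect (adjusted p = 0.0613) or by limma without the trend (adjusted p = 0.282). Scg2, secretogranin II, read 867, 2541 and 1484, and 1813, 4165 and 3181, highest in replicate 2 for both siRNAs, with a log2 difference of 0.98 and an adjusted p of 0.0728, which was 0.000556 with the block.

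Glucagon varied with the replicate number in another order. Gcg, the hormone of α-cells, read 8056, 4789 and 817 in replicates 1, 2 and 3 with COUP-TFII siRNA and 6313, 3397 and 394 with scrambled siRNA. Replicate 2 lay between the others, and its difference from their mean was not called (log2 difference 1.00 ± 1.08 SE, adjusted p = 0.691). Replicate 3 was lower than replicate 1 (log2 difference -3.65, adjusted p = 3.18e-05). The block leaves that gap out of the error, so its call (adjusted p = 0.00211) does not show that replicate 2 stood apart. Gpd1, the glycerol phosphate dehydrogenase, had the same order, at 2431, 1900.0 and 775 and at 2137, 1968 and 818, with a log2 difference of -1.52 between replicates 3 and 1 (adjusted p = 0.000356). The number of cells that make glucagon and the glucagon mRNA per cell cannot be told apart here.

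**Figure D4:**
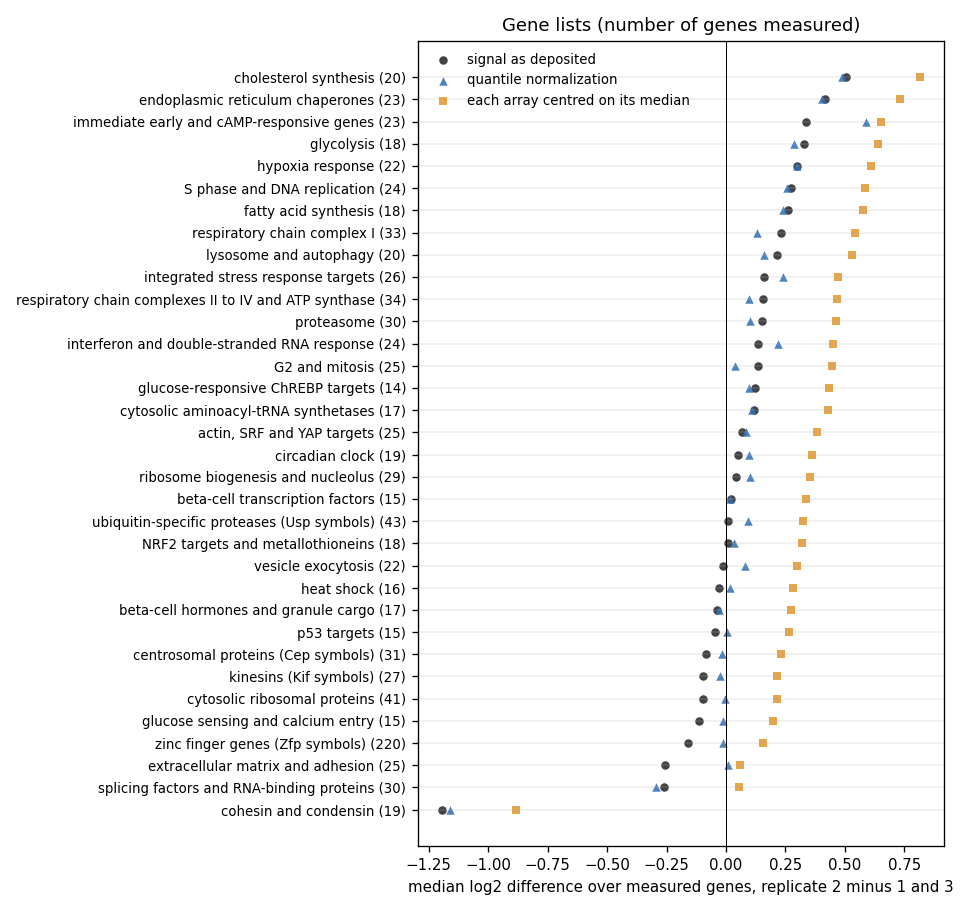
Median log2 difference of replicate 2 from replicates 1 and 3 over the measured genes of each list (horizontal axis, number of genes in brackets), in the signals as deposited (black circles), after quantile normalization (blue triangles) and with each array centred on its median (orange squares). Cholesterol synthesis lies highest as deposited (0.50) and with centring (0.82) but, at 0.49, below the immediate early genes (0.59) after quantile normalization. Cohesin and condensin lie lowest at -1.20, -1.16 and -0.88, and many lists near 0 change sign with centring.

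Not all of the difference lay in rat transcripts. The hybridization controls are bacterial and phage transcripts of fixed amount, and those of bioC were much lower on the replicate 2 arrays. The 3′ probe set of BioC read 568 and 454 with COUP-TFII siRNA and 511 and 512 with scrambled siRNA in replicates 1 and 3, and 101 and 84.8 in replicate 2, 5.52-fold lower. The other 3 bioC probe sets were 3.91-, 4.35- and 4.44-fold lower, and in all 4 the replicate 2 arrays lay below the other arrays without overlap. The exact permutation test of 2 arrays against 4, two-sided, gave p = 0.0667 for each, the smallest p that this design allows.

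The other controls differed less. The bioB probe sets were 1.52- to 1.83-fold lower in replicate 2, also without overlap (p = 0.0667, same exact permutation test), and those of bioD and of the phage gene cre were 1.18- to 1.35-fold lower, in part with overlap. The rat controls of Gapdh and β-actin differed by a ratio of 0.963 to 1.08 between replicates 1 and 3 and replicate 2. By the same ratio the rat controls 5S rRNA and ratb2 stood at 0.835 and 0.906. The rat control ratb1 was 1.8-fold lower in replicate 2, at 31.6 and 27.8 against 38.0 to 68.3 (p = 0.0667, same exact permutation test). Whether the lower bioC signal and the differences of rat transcripts share a cause was not tested.

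**Figure D5:**
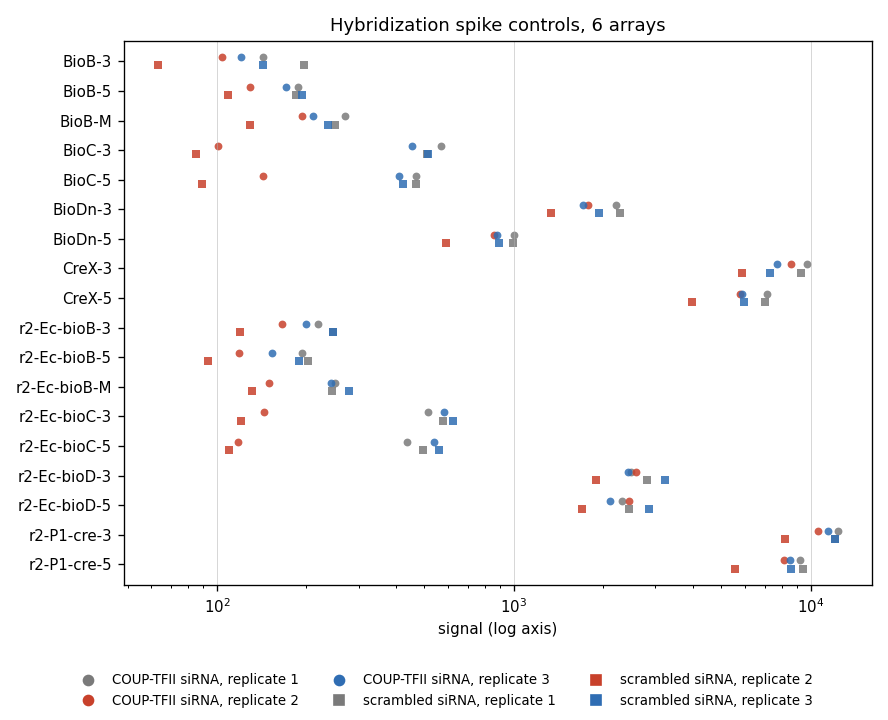
Signal (horizontal log axis) of the 18 hybridization control probe sets on the 6 arrays, with circles for COUP-TFII siRNA, squares for scrambled siRNA and red for replicate 2. In the 4 bioC rows the red points, at 84.8 to 144, lie far to the left of the other points, at 411 to 625, while in the bioD and cre rows they lie near or among them.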

How the data were processed

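RNA of 832/13 INS-1 cells was measured on 6 rat expression arrays. Per the labels the authors processed the scans with MAS5 (version not given in the sources used here) and deposited an intensity on a linear scale for every probe set, without detection calls or counts, so the number of arrays limits the precision. Of 31099 probe sets, 57 controls were left out of the fits. Values below 1 were raised to 1 before the log2 transformation, and no further normalization was applied.

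The 2 arrays of replicate 2 were compared with the other 4 in limma 3.58.1 (R 4.3.3, eBayes with an intensity trend, siRNA as covariate, Benjamini-Hochberg over 31042 probe sets), and a probe set was called at an adjusted p under 0.05. The design leaves 3 residual degrees of freedom, and 2 with the replicate number as a block. Where same-numbered arrays of the 2 siRNA groups were set against each other, their deviations from the mean correlated at 0.111, 0.231 and 0.163 over all probe sets, so the number was taken to pair the arrays, and a fit with it as a block of 3 levels is given. Single control probe sets were compared by an exact permutation test over the 15 arrangements. The main fit was tested on simulated data with independent noise in each array. That cannot show how the calls behave where arrays of the same replicate number vary together.

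Symbols came from the platform annotation, which names a single gene for 20826 probe sets, more than 1 for 436 and no gene for the other 9780. For 34 gene lists, and 5 added after the values were seen, each gene was represented by its brightest probe set, and 104 of 1127 listed symbols had no named probe set. Replicate 2, the lists, the tests and the rule for named genes were chosen with earlier results of these data known. The rule takes the 12 largest called differences per direction with 1 symbol, at or above the median signal, without overlap and of the same sign in both siRNA groups, then, from each list, at most 3 members of that brightness with the lowest p, the β-cell markers and Nr2f2. Other called list members are named to account for the counts. Python 3.11.15 with matplotlib 3.10.9 drew the plots.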

Additional observations from a re-analysis of the deposited data

Results flagged for a closer look

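In 3 of 134 named probe sets (2.2%) 1 of the 4 arrays of replicates 1 and 3 lay far from the other 3, as judged by its gap to the nearest of them divided by the whole range, on the log2 scale. Chance alone gives about 1 such group in 20. For Gamt the ratio was 0.835, with the scrambled siRNA array of replicate 1 highest at 78.5 against 61.7 for the next. For Syvn1, a ubiquitin ligase of the endoplasmic reticulum, it was 0.855, with the same array highest at 395 against 337. For Prss1, trypsinogen, it was 0.934, with the COUP-TFII siRNA array of replicate 1 lowest at 6.05 against 14.9, all below the Bacillus control level of 20.7.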

How the results depend on the processing

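Of 2384 values of 134 named probe sets under the alternatives, 1991 kept their direction and their side of the threshold, 256 were no longer called, 136 became called and 1 reversed, namely Gcg, whose log2 difference of 1.00 became -0.82 without replicate 3 (adjusted p = 0.0188) and 2.83 without replicate 1. The probe sets called higher numbered 161 after quantile normalization, 2897 with median centring, 430 with the filter at the median signal, 77 by the methods' t-test after Benjamini-Hochberg and 0 by limma without the trend. Those called lower numbered 554 by the methods' t-test and 0 by limma without the trend. At an unadjusted p up to 0.05 median centring gave 6262 higher and 2206 lower, limma without the trend 845 higher, and the filter at the median signal 2521 lower. The t-test gave 1783 higher and 3572 lower at that threshold. The replicate block gave 1243 higher and 2228 lower by adjusted p and 3042 higher at an unadjusted p up to 0.05, and as a random effect (correlation 0.055) 211 and 1333. With arrays left out, singly or as both arrays of replicate 1 or 3, the calls ran from 0 to 1108 higher and from 123 to 1860 lower, and from 727 to 2950 higher and 2639 to 4518 lower at an unadjusted p up to 0.05. Where 1 array of replicate 2 was left out, the lone array was assumed to vary like the others. The share of the variation held by replicate 2 over all probe sets, 28.2%, was 25.9% after quantile normalization and 26.8% with centring. The count of differences that depended on the siRNA was 0 after quantile normalization, with centring, on log2(signal + 16) and with both filters, the settings in which it was run. Of 741 list medians under the alternatives 549 moved by less than the spread between arrays and 83 changed sign. Of 1707 called probe sets, 1185 were called with the same sign after quantile normalization and 1317 with centring. With 3 residual degrees of freedom, and no detection calls, differences of dim probe sets are the least certain.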
